A study of Homo sapiens with 30 samples.

Results

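The 59 genes described here encode proteins of the cytosolic ribosome, out of 12690 genes measured on a custom Affymetrix array. They are the genes with a single symbol that starts with RPL or RPS and a digit, or with RPLP, each read by its brightest probe set, and 35 belong to the large and 24 to the small subunit. The choice used names and brightness, not the response to any condition. RPLP1 was the only one of the 3 stalk genes among them, and RPLP0, RPLP2, RPL5, RPL10, RPSA, RPS27A and RPS4X are not analysed here. RPS4Y1 is counted and its values are not given.

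The 30 arrays hold RNA from 3 human cancer cell lines grown as monolayers, with hypoxia meaning oxygen below 0.01%. RCC4, a renal carcinoma line, was measured on 10 arrays as VHL-null cells and on 10 as cells with wild-type VHL put back (VHL-restored), at 0, 1, 2, 4, 6 and 18 h of hypoxia and at 1 and 4 h of reoxygenation after 18 h. HCT116, a colon carcinoma line, took 6 arrays, p53-null and p53 wild type at 0, 12 and 24 h, and H1299, a non-small cell lung cancer line, took 4 as p53-null cells and cells with p53 reintroduced (here p53 wild type) at 0 and 24 h. Only RCC4 at 0 h and 18 h had 2 independent replicates per genotype, and all other groups have 1 array each. Clones are not named in the labels, and any other difference between the cells of 2 genotypes cannot be told apart from VHL or p53. Fewer ribosomal protein mRNAs per cell and fewer cells cannot be told apart in these pooled RNAs.

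A ribosome holds a single copy of almost every one of its proteins, and cells coordinate their synthesis with that of ribosomal RNA. Their mRNAs carry a terminal oligopyrimidine (TOP) tract at the 5′ end, through which mTORC1 and LARP1 control their translation. Some of these proteins, RPL11 and RPL23 among them, bind MDM2 when ribosome assembly is disturbed and so link ribosomes to p53. Ribosomal protein genes have many processed pseudogenes, and which copies the probes can read is not stated.

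The starts of 8 genes that the results turn on are shown because a TOP tract lies at the 5′ end of an mRNA. Each line gives 15 bases before and 15 bases from the annotated start of the gene in RefSeq (GRCh38.p14), 5′ to 3′ on the gene's strand, with the longest unbroken run of C and T in capitals.
RPL12 (chr9:127451392-127451421, minus strand): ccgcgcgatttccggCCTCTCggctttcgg
RPL35A (chr3:197950175-197950204, plus strand): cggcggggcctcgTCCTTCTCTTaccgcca
RPL7A (chr9:133348203-133348232, plus strand): ccacaaTTCCCTTTCCTTTCTCTCTCCTCC
RPL21 (chr13:27251543-27251572, plus strand): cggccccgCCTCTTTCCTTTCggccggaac
RPL17 (chr18:49492451-49492480, minus strand): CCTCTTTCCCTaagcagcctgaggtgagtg
RPL14 (chr3:40457324-40457353, plus strand): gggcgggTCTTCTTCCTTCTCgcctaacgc
RPL22 (chr1:6199581-6199610, minus strand): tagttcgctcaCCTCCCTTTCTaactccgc
RPL36AL (chr14:49620612-49620641, minus strand): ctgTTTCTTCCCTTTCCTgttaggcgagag

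The run was 24 bases long in RPL7A and 6 in RPL12, with 10 to 15 in the other 6. The runs of RPL7A and RPL17 reached the edge of the window and may be longer. RPL12 through RPL17 are genes whose signal was lower in VHL-null RCC4, RPL14 is the gene whose signal was higher, and RPL22 and RPL36AL are those called higher on reoxygenation. Of the 59 genes, 51 had a window in the RefSeq table, and the longest run had a median of 11 bases there, against 4 over 27305 genes. A run of 8 or more was present in 80.4% of the 51 and in 13.4% of all genes. The letters CTTCC or CTTTC stood on the gene's strand in 68.6% of the windows of these genes and in 11.1% of all windows, and on the other strand in 5.88% and 9.82%, overlaps of the motifs included. Among the genes shown, a run of 8 or more was present in RPL14 and, of the 5 lower in VHL-null cells, in RPL35A, RPL7A, RPL21 and RPL17. The run of 6 in RPL12 began at the first base from the start. In RPL17 the run of 11 began 15 bases before the start, so it ended before the start. A match describes letters only.

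Ribosomal protein probe sets were among the brightest on the array. Of the 100 genes with the highest mean log2(intensity + 16), 42 were ribosomal protein genes, as were 13 of the top 20 and 54 of the 634 in the top 5%. The authors' intensities are scaled in a way the labels do not state, and signals of different probe sets do not compare RNA amounts. RPL41, which encodes the smallest ribosomal protein, gave the highest signal, with a lowest, median and highest intensity of 2902, 3430 and 3868 over the 30 arrays. RPS2 and RPS27 of the small subunit, RPL37A and the stalk gene RPLP1 came next, with medians of 2537, 2206, 2421 and 2104. The dimmest were RPL23A, listed at 12 to 76 and null on 17 arrays, RPS15A at 238 to 330, RPL22 at 321 to 712 and RPL36AL at 399 to 707, apart from RPS4Y1. RPL3L, the paralog of RPL3 known for heart and skeletal muscle, was listed at 813 to 1005 in these carcinoma lines. RPL23A was too dim for the tested genes, so tests covered 58 of the 59.

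**Figure D1:**
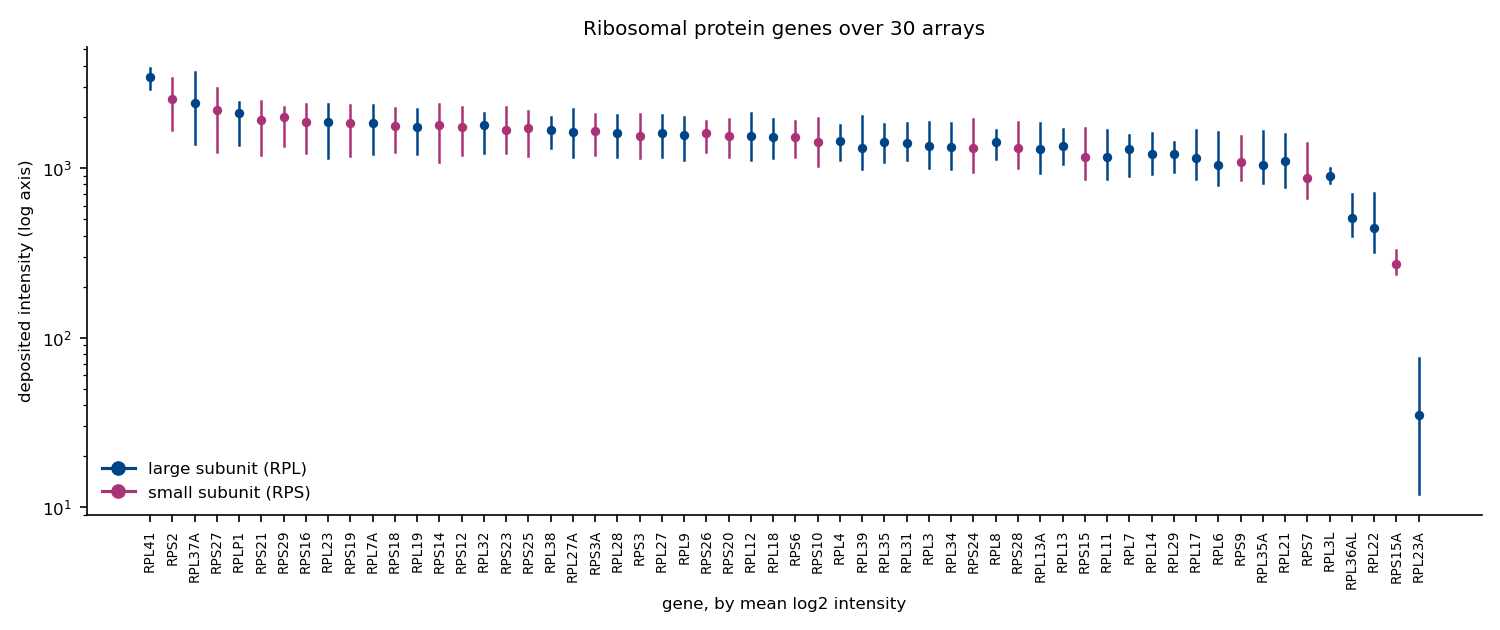
Intensity of 58 ribosomal protein genes (log axis), ordered by mean log2 intensity; dots are medians over 30 arrays and bars run from the lowest to the highest array, in blue for the large and purple for the small subunit. For RPL23A, null on 17 arrays, the dot and bar cover its listed values only. RPL23A lies far below the rest, and RPS15A, RPL22 and RPL36AL lie below the main body of genes.

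Values below are log2(intensity + 16) with each array centred on its median over all genes. On this scale the genes varied little, with a median SD over 30 arrays of 0.184, against 0.291 over all 7614 tested genes. It was 0.252 over 2222 bright genes outside the family, called other bright genes below. Those were dimmer than the family, with a centred median of 1.923 against 3.084 on the VHL-null RCC4 array at 0 h (replicate 1). RPL6, at 0.115, and RPS15, at 0.117, had the smallest SD. RPL41, at 0.327, RPS2, at 0.323, RPL37A, at 0.293, and RPL3L, at 0.291, had the largest among those tested. In listed intensity, without centring, the order differed. RPL6 ran from 795 to 1639 and RPS15 from 862 to 1722, while RPL3L ran from 813 to 1005 and RPL41 from 2902 to 3868. RPS2, at 1664 to 3380, and RPL37A, at 1376 to 3673, also varied widely in listed intensity. The correlation of a gene with the median of the others had a median of 0.834 over the 30 arrays, which share cell lines and array sets. RPL35, at 0.970, RPS6, the substrate of the S6 kinases, at 0.967, and RPL18, at 0.954, followed the family most closely. RPL6, at 0.331, RPS7, at 0.375, RPL22, at 0.459, and RPS14, deleted in the 5q- syndrome, at 0.492, followed it least.

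Ribosomal protein signal differed between 2 sets of arrays, told apart by whether 5 control entries are empty (set 1, 18 arrays) or hold values (set 2, 12 arrays). Set 1 holds all H1299 and HCT116 arrays, replicate 1 of RCC4 at 0 h and 18 h, and RCC4 at 2 h and 6 h. Set 2 holds replicate 2, the 1 h and 4 h arrays of RCC4 and its reoxygenation arrays. The median intensity of the 59 genes was 1318 to 1381 on the 8 RCC4 arrays of set 1 and 1603 to 1939.5 on the 12 of set 2. Their correlation with the family median was 0.381 (median over genes) within the first and 0.948 within the second. In RCC4, other bright genes moved with them between arrays: at 0 h their centred medians were 1.923 in set 1 and 1.581 in set 2 in VHL-null cells, beside 3.084 and 2.739 for the ribosomal protein genes. Replicate deviations correlated between groups at 0.794 to 0.916 over all genes, so a fit with the replicate number as a block was also made. Signal above an array's median was seen for 1 to 2 of 3 renal markers in RCC4, 2 of 7 colon markers in HCT116 and 3 of 5 lung markers in H1299. The renal count was 0 to 1 in HCT116 and in H1299. Summed renal intensity was 450 to 799 in RCC4, 264 to 328 in HCT116 and 209 to 271 in H1299. The colon count was also 2 in H1299 and 0 to 2 in RCC4, and the lung count was 3 in every line. The colon and lung markers therefore do not set the lines apart. VHL was dim and was not tested, with 14 to 109 on the VHL-null arrays and 1 to 40 where listed on VHL-restored arrays, and it does not check the genotype because the part its probes read is not stated.

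Several ribosomal protein mRNAs, most of them lower in VHL-null cells, differed between the VHL genotypes of RCC4. Over all 20 RCC4 arrays, with state and array set as terms, limma called 23 of 58 genes (39.7%) at a Benjamini-Hochberg adjusted p under 0.05, 22 lower and RPL14 alone higher in VHL-null cells. Of all 7614 genes 34.2% were called, 21.6% lower and 12.5% higher. The overall share of called genes was therefore near the background, with 37.9% of the ribosomal protein genes lower. The median difference was -0.10 for the 58 and -0.05 for all tested genes. RPL12, RPL35A, RPL7A, RPL21 and RPL17, all of the large subunit, had low adjusted p and differences of -0.24 to -0.33, that is 1.18- to 1.26-fold lower.

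RPL12, a protein at the base of the stalk, had intensities of 1216, 1300, 1232 and 1267 on the set 1 arrays of VHL-null cells at 0, 18, 2 and 6 h, against 1453, 1476, 1431 and 1408 in VHL-restored cells. On the 6 pairs of set 2 its lowest, median and highest intensities were 1544, 1652 and 1709 in VHL-null cells and 1987, 2009.5 and 2108 in VHL-restored cells. The genotypes did not overlap in either set, and how many of all genes were so separated was not counted. The fitted difference was -0.33 (SE 0.0453, limma adjusted p = 4.29e-05), lower in 10 of 10 pairs matched for state and set.

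RPL35A, a large-subunit gene mutated in some Diamond-Blackfan anaemia, was listed at 872 to 986 in VHL-null and 1024 to 1136 in VHL-restored cells in set 1. In set 2 it ran from 1266 to 1407 in VHL-null cells and from 1541 to 1646 in VHL-restored cells. Again there was no overlap, a trait not counted over all genes. Its difference was -0.31 (SE 0.0452, limma adjusted p = 7.62e-05), lower in 10 of 10 pairs, though the call was lost when its probe sets were averaged. RPL7A differed by -0.26 (SE 0.0375, adjusted p = 6.3e-05), with set 1 medians of 1642 in VHL-null and 1861.5 in VHL-restored cells. It too was lower in 10 of 10 pairs, as were RPL17 at -0.24 (SE 0.0437, adjusted p = 0.00062) and RPL27 at -0.18 (SE 0.0397, adjusted p = 0.00213). RPL21 differed by -0.26 (SE 0.0475, adjusted p = 0.000591) and was lower in 9 of 10.

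RPL14, a large-subunit protein, went the other way. Its intensities in set 1 were 1221, 1260, 1260 and 1242 in VHL-null cells at 0, 18, 2 and 6 h, against 1065, 1067, 1044 and 1037 in VHL-restored cells. In set 2 the lowest, median and highest were 1433, 1525.5 and 1617 in VHL-null cells and 1136, 1304.5 and 1353 in VHL-restored cells. The groups did not overlap in either set, which was not counted over all genes. No other called ribosomal protein gene was higher without VHL. The difference was 0.18 (SE 0.0385, limma adjusted p = 0.00184), higher in 9 of 10 pairs, the exception being 4 h of reoxygenation at -0.02. With arrays centred on other bright genes RPL14 was higher in 10 of 10 pairs, by a mean of 0.25. Its call was lost without the array set as a term and in the fit with averaged probe sets. RPL14 has 1 probe set, so its own intensity was the same in the averaged fit.

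**Figure D2:**
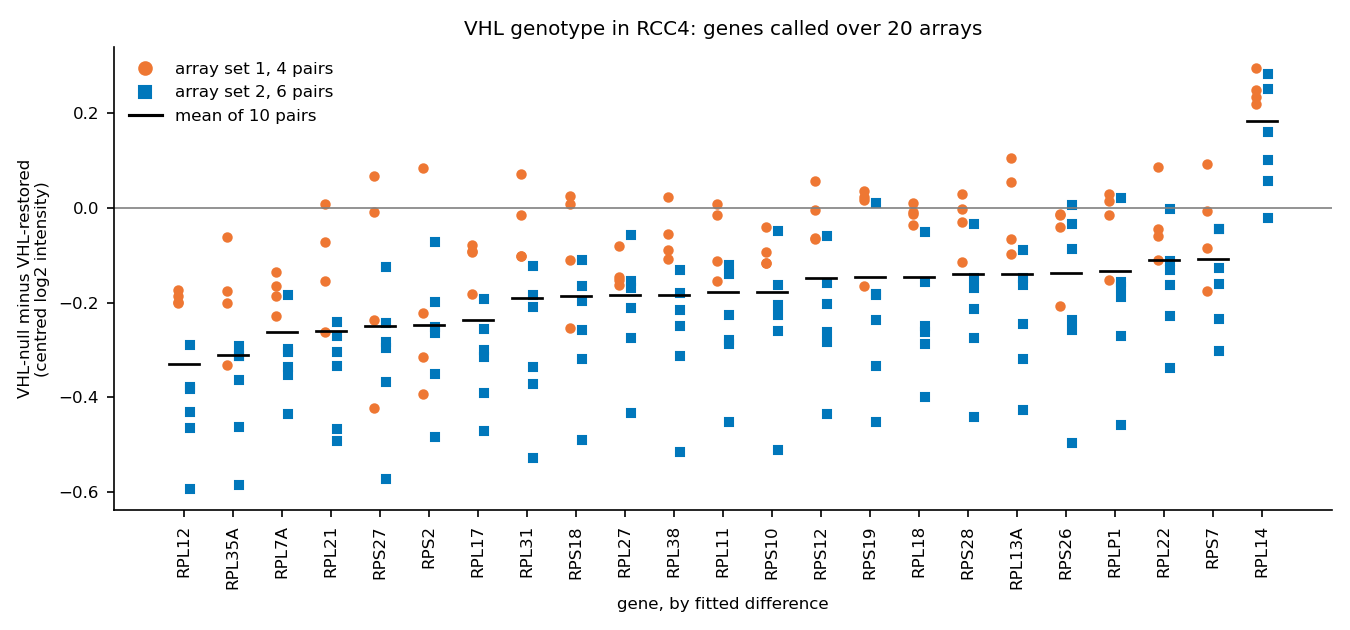
VHL-null minus VHL-restored centred log2 intensity for the 23 genes called over 20 RCC4 arrays, ordered by difference; each point is a pair of arrays at a matched state, circles for the 4 pairs of set 1 and squares for the 6 of set 2, and the bar is their mean. RPL12, RPL35A and RPL7A lie below 0 in every pair, and RPL14 lies above 0 in 9 of 10.

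Among small-subunit genes, RPS2, which lies at the mRNA entry channel, differed by -0.25 (SE 0.0487, limma adjusted p = 0.00109), RPS27 by -0.25 (SE 0.0537, adjusted p = 0.00218) and RPS18 by -0.19 (SE 0.0467, adjusted p = 0.00608). RPS2 was higher in VHL-null cells in 1 pair, at 0 h of set 1, with 2964 against 2901. RPL11, which binds MDM2, differed by -0.18 (SE 0.0445, adjusted p = 0.00604). RPS10, chosen after its values were seen because it was lower in 10 of 10 pairs, differed by -0.18 (SE 0.0448, adjusted p = 0.00635). RPS19 and RPLP1, named for their roles, differed by -0.15 (SE 0.0497, adjusted p = 0.0329) and -0.13 (SE 0.0471, adjusted p = 0.0381). Both calls were lost without centring, with bright-gene centring, without the filter and without the array set term, and held in 3 and 2 of 8 fits that left out a replicate. The remaining called genes are shown in the plot of genotype pairs.

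The median genotype difference differed between the array sets. The median over the 58 genes was 0.03, 0.06, 0.01 and -0.03 in the set 1 pairs at 0, 2, 6 and 18 h. In set 2 it was -0.23 at 0 h, -0.12 at 1 h, -0.02 at 4 h, -0.18 at 18 h, -0.13 at 1 h of reoxygenation and -0.38 at 4 h. Other bright genes had medians of 0.07, 0.02, -0.04 and -0.03 in the set 1 pairs and -0.15, -0.08, -0.04, -0.12, -0.12 and -0.31 in the set 2 pairs, and their part in the ribosomal protein median was not tested. With arrays centred on those bright genes 8 genes were lower in 10 of 10 pairs, namely RPL11, RPL12, RPL17, RPL21, RPL27, RPL35A, RPL7A and RPS10. How many of all genes were lower in every pair was not counted. Without the array set as a term limma called 7 ribosomal protein genes (12.1%), all lower, against 15.1% of all genes.

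Other genes on the same chromosomes differed too. RPL12 and RPL7A lie on chromosome 9, where 113 of 313 tested genes were called lower and 16 higher in VHL-null cells, with a median of -0.09. RPL17 lies on chromosome 18, where 52 of 96 were called lower and 2 higher, with a median of -0.13. RPL21 lies on chromosome 13, where 41 of 117 were called lower and 10 higher. RPL14 and RPL35A, which differed in opposite directions, both lie on chromosome 3, where 76 of 428 were called higher and 97 lower. The part of chromosome-wide differences in these results was not tested.

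At 0 h alone (n = 2 arrays each) limma called 0 of the 58 genes, against 0.118% of all genes (0.105% higher and 0.0131% lower). At an unadjusted p under 0.05 there were 0 of 58, against 3.45% of all genes. With the replicate block 0 were called, 6 (10.3%) had an unadjusted p under 0.05, against 17.2% of all genes, and RPL35A came nearest at -0.33 (adjusted p = 0.0547). Of all genes 7.51% were called (3.1% higher and 4.41% lower). At 18 h (n = 2 each) limma again called 0, against 0.0263% of all genes, with 0 at an unadjusted p under 0.05, against 3.34%. RPL35A differed there by -0.35 and was called with the replicate block (SE 0.0997, adjusted p = 0.0424), the only gene of the 58 to be so (1.72%), against 7.59% of all genes (3.62% higher and 3.97% lower). At an unadjusted p under 0.05 the block gave 9 of 58 (15.5%), against 17.9% of all genes. It was listed at 911 and 1376 in VHL-null cells at 18 h and at 1136 and 1637 in VHL-restored cells.

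Of the other translation genes in RCC4, EEF1A2, the tissue-restricted form of elongation factor 1 alpha, was lower without VHL, at -1.26 (SE 0.0756, adjusted p from limma = 7.45e-09). EEF2 was the other called elongation factor of 6, at -0.16 (SE 0.0563, adjusted p = 0.0403). RPL26L1, a paralog of RPL26 outside the rule, was higher by 0.70 (SE 0.0758, adjusted p = 3.88e-06). It was listed at 140 and 537 in VHL-null cells at 0 h, against 121 and 320 in VHL-restored cells. Among 13 tested genes with other TOP mRNAs 3 were lower and 0 higher, TPT1 at -0.25, EIF4A2 at -0.22 and NAP1L1 at -0.18, that is 23.1% called, against 34.2% of all genes. Initiation factors had 3 lower and 1 higher of 13 (30.8% called), with EIF3K at -0.30 (SE 0.0398, adjusted p = 3.23e-05). Mitochondrial ribosomal protein genes had 16 called higher (38.1%), 4 lower and 22 not called of 42 (median 0.05, 27 positive), and proteasome subunits had 8 higher (32%) and 1 lower of 25 (median 0.04), against 12.5% of all genes higher. Differences between these groups were not tested.

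No ribosomal protein gene of RCC4 was called after 18 h of hypoxia. In VHL-null cells limma called 0 of 58 genes, against 0% of all genes, with 0 at an unadjusted p under 0.05, against 0.67%. Of the 58, 57 were positive with a median of 0.09, against 58.7% of all genes and 0.02. In VHL-restored cells limma also called 0, against 0.0394%, with 0 at an unadjusted p under 0.05, against 2.81%. There 55 were positive with a median of 0.09, against 65.4% of all genes and 0.05. With the replicate block the count stayed at 0 in both, against 0.486% of all genes in VHL-null cells (0.276% higher and 0.21% lower) and 6.58% in VHL-restored cells (3.7% higher and 2.88% lower). At an unadjusted p under 0.05 the block gave 0 of 58 in VHL-null cells, against 8.42% of all genes, and 3 (5.17%) in VHL-restored cells, against 16.9%. The sign of the median depended on the scaling: with quantile normalization it was 0 in VHL-null cells, with 26 positive and 30 negative, and -0.024 in VHL-restored cells, with 17 positive and 40 negative. The VHL by hypoxia interaction called 0 genes with or without the block, against 0.565% of all genes with it (0.0657% higher and 0.499% lower) and 0% without. At an unadjusted p under 0.05 it gave 0 of 58 in both fits, against 5.91% of all genes with the block and 0.591% without. By replicate the median change was 0.004 and 0.175 in VHL-null cells, where other bright genes had -0.048 and 0.139. It was 0.067 and 0.12 in VHL-restored cells, where they had 0.041 and 0.098.

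RPL37A came nearest to a call in VHL-restored cells, at 0.45 (blocked adjusted p = 0.0527). It was listed at 3673 and 2831 after 18 h, against 2183 and 2716 at 0 h, so most of the change was in replicate 1. RPS6 was listed at 1385 and 1884 after 18 h, against 1393 and 1759 at 0 h. At the shorter times the median change from 0 h of the same set lay between 0.014 and 0.037 at 2 h and 6 h in both genotypes. In VHL-null cells it was 0.228 at 1 h and 0.283 at 4 h, where other bright genes had 0.173 and 0.19. Both share the replicate 2 array at 0 h, which had the lowest null share (18.4%) and the highest all-gene median (249.5) of the 30, and without centring they were -0.057 and 0.045. In VHL-restored cells it was 0.105 and 0.062, where they had 0.105 and 0.085.

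In HCT116 and H1299 the 24 h medians of the family lay farther from 0 than those of other bright genes. In HCT116 the median difference of the 58 genes was 0.42 in p53-null cells, with 57 positive, and 0.22 in p53 wild-type cells, with 58 positive, where other bright genes had 0.07 and 0.04. In H1299 it was 0.22 in p53-null cells, with 57 positive, while in p53 wild-type cells the median was -0.13, with 5 positive, where other bright genes had 0.03 and -0.003. Most of the HCT116 change was present at 12 h, at 0.35 in p53-null and 0.18 in p53 wild-type cells. The HCT116 p53-null array at 0 h was low for the family: its median intensity over the 59 genes was 1125.5, against 1263 to 1520.5 on the other 9 arrays of these lines.

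**Figure D3:**
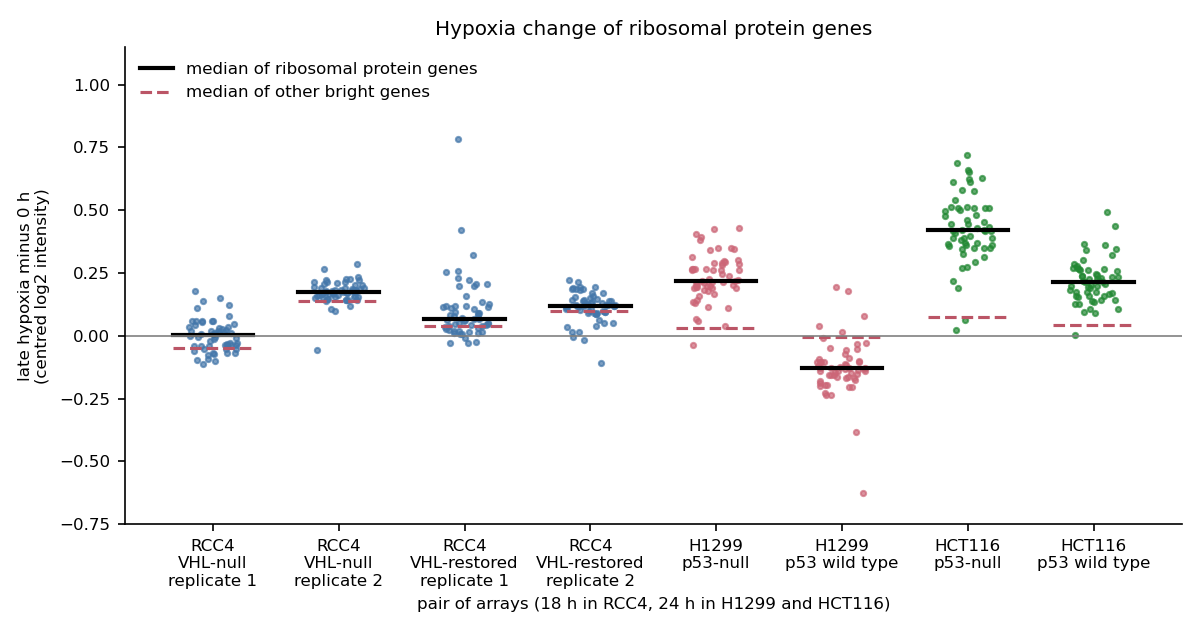
Change in centred log2 intensity from 0 h to late hypoxia for 57 ribosomal protein genes (points) in each pair of arrays, with the family median (solid bar) and the median of other bright genes (dashed bar). The 2 medians lie close together in RCC4 and apart in H1299 and HCT116, and H1299 p53 wild type is the only pair with a negative family median.

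RPS6 and RPL11 show these values on single arrays. RPS6 was listed at 1571 and 1503 after 24 h in HCT116 p53-null and p53 wild-type cells, against 1155 and 1441 at 0 h. In H1299 it was at 1524 and 1330 after 24 h in p53-null and p53 wild-type cells, against 1278 and 1488 at 0 h. RPL11 was at 1207 and 1169 after 24 h in HCT116, against 866 and 1038 at 0 h, and in H1299 at 1190 and 1054, against 1045 and 1158. RPL37A was at 2270 and 1993 after 24 h in H1299 p53-null and p53 wild-type cells, against 1741 and 3077 at 0 h. RPS10 had a positive difference in each of the 4 pairs, at 0.39 and 0.16 in HCT116 and 0.22 and 0.08 in H1299 (p53-null and p53 wild type). RPL38, RPS15, RPS15A and RPS26 were also positive in each of them.

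With line and genotype as a block over these 4 pairs, limma called 0 of 58 genes for 24 h of hypoxia, against 0% of all genes. All 58 differences were positive, against 59.6% of all genes (median 0.19 against 0.02). Of the 58, 4 (6.9%) had an unadjusted p under 0.05, against 5.61% of all genes. These genes moved together across arrays, so a count of positive genes is not a count of separate observations. The smallest adjusted p was 0.654, and RPS10 stood at 0.21 (SE 0.0688, adjusted p = 0.654). Without the HCT116 p53-null cells the median was 0.11, with 58 positive and 0 called. Over the 6 backgrounds, with RCC4 replicates averaged, late hypoxia gave 58 positive differences, against 61.9% of all genes (median 0.15 against 0.025). Of the 58, 21 (36.2%) had an unadjusted p under 0.05, against 12.1% of all genes, and 0 were called, against 0%. Without HCT116 p53-null cells the median of the 58 was 0.098. RPS10 was at 0.17 (SE 0.0502, adjusted p = 0.395) and RPS19 at 0.22 (SE 0.0738, adjusted p = 0.395). Elongation factors had 6 of 6 positive in the same fit (median 0.17) and other TOP mRNAs 13 of 13 (median 0.13), with 0 called in each. The other groups had 23 of 42 positive for mitochondrial ribosomal proteins (median 0.02) and 14 of 25 for proteasome subunits (median 0.01).

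The p53 genotypes were compared in 5 pairs of arrays, with line and time as a block. Limma called 0 of 58 genes, against 0% of all genes, with 0 at an unadjusted p under 0.05, against 6.91% of all genes. The median of p53-null minus p53 wild type was -0.055 with 4 positive, against -0.001 and 49.3% positive over all genes. It was -0.117 without the H1299 24 h pair, -0.022 without H1299 at 0 h and -0.015 without HCT116 at 0 h. The pairs did not share a direction. At 0 h the median was -0.181 in H1299 and -0.235 in HCT116, and at 24 h it was 0.172 in H1299 and -0.002 in HCT116, with -0.05 in HCT116 at 12 h. RPL9, a large-subunit protein, had the lowest p, at -0.16 (SE 0.0731, adjusted p = 0.73). RPL11 was at 1045 and 866 in p53-null cells at 0 h in H1299 and HCT116, against 1158 and 1038 in p53 wild-type cells.

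Reoxygenation for 4 h after 18 h of hypoxia gave 2 called genes of 58 in RCC4, both higher (3.45%), a share near that of all genes. Of all genes 2.63% were called, 0.946% higher and 1.68% lower. RPL22, a large-subunit protein not needed for protein synthesis as such and one of a pair of paralogs, was listed at 712 in VHL-null and 685 in VHL-restored cells. The 18 h arrays of the same set read 632 and 639, and those of set 1 read 420 and 449. RPL22 rose by 0.36 (SE 0.0844, limma adjusted p = 0.0336), with pair differences within set 2 of 0.34 and 0.37. RPL36AL, an autosomal paralog of RPL36A, rose by 0.30 (SE 0.0731, adjusted p = 0.036), with 0.31 and 0.32 within set 2. Its reoxygenation readings of 696 in VHL-null and 613 in VHL-restored cells lay above the 629 and 593 of the 18 h arrays of that set, but not above its 0 h arrays, at 707 and 668. At 1 h of reoxygenation RPL22 was at 0.13 in VHL-null and 0.22 in VHL-restored cells against 18 h, and RPL36AL at 0.14 and 0.25.

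All 58 genes had a positive difference after 4 h of reoxygenation, against 71.5% of all genes (median 0.13 against 0.07). Without centring the median was -0.109, with 3 positive and 55 negative. By pair the median was 0.01 in VHL-null and 0.21 in VHL-restored cells, where other bright genes had -0.03 and 0.17, and without centring it was -0.157 and -0.063. The VHL-restored array at 4 h of reoxygenation had the highest null share of the 30, 40.4% of probe sets, and an all-gene median of 172, against 211 at 18 h in the same set. The reoxygenation arrays are single per genotype and all lie in set 2. Neither gene was called without centring, with quantile normalization, with arrays centred on other bright genes or without the array set as a term. Of the 4 fits that left out an 18 h array, RPL22 was called in 0 and RPL36AL in 1. DDIT4, which restrains mTORC1, was the only called regulator of 8 tested, at -1.05 (SE 0.203, limma adjusted p = 0.0113).

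The 3 lines were compared on the 4 arrays per line of set 1 at 0 h and late hypoxia, both genotypes together. The share of ribosomal protein genes called was below that of all genes in each comparison. HCT116 against RCC4 gave 13 higher and 2 lower of 58 (25.9%), against 61.1% of all genes (40% higher and 21.1% lower). H1299 against RCC4 gave 8 higher and 1 lower (15.5%), against 58.2% (37.8% higher and 20.5% lower). HCT116 against H1299 gave RPL21 higher and RPL7 lower (3.45%), against 20.2% (9.35% higher and 10.8% lower). The genotypes and times that serve as replicates are not independent cultures of 1 condition. The direction of small differences depended on the centring: with other bright genes as the centre HCT116 against RCC4 gave 1 higher and 7 lower, and H1299 against RCC4 gave 2 higher and 13 lower.

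RPL7, a large-subunit protein, had the largest log2 difference of the 58 genes in these comparisons. Its intensities were 923, 1186, 1119 and 1099 in HCT116, 1309, 1405, 1384 and 1293 in H1299 and 961, 967, 900 and 949 in RCC4. All 4 H1299 arrays lay above the HCT116 arrays, while HCT116 overlapped RCC4 through its low p53-null array at 0 h. RPL7 was 1.57-fold higher in H1299 than in RCC4 (log2 difference 0.65, SE 0.0694, limma adjusted p = 1.83e-05) and 1.28-fold higher in HCT116 than in RCC4 (0.35, SE 0.0694, adjusted p = 0.00122). HCT116 against H1299 was at -0.29 (SE 0.0694, adjusted p = 0.0125). RPS20, a small-subunit protein whose gene lies on the same chromosome 8, was higher in H1299 than in RCC4 by 0.43 (SE 0.0715, adjusted p = 0.000445) and in HCT116 by 0.24 (SE 0.0715, adjusted p = 0.0142). The H1299 call of RPS20 held in 9 of 9 alternatives. Its HCT116 call was lost without centring and with 75th percentile centring, quantile normalization or bright-gene centring. The third gene of chromosome 8 among the 58, RPL8, was not called in any of the 3 line comparisons.

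RPS2 was lower in both lines than in RCC4, by -0.37 in HCT116 (SE 0.132, limma adjusted p = 0.0302) and -0.42 in H1299 (SE 0.132, adjusted p = 0.0179). It was listed at 1692 to 2484 in HCT116, 1664 to 2531 in H1299 and 2901 to 3380 in RCC4. RCC4 did not overlap the others on the arrays compared, which was not counted over all genes. RCC4 arrays of set 1 at 2 h and 6 h, outside this comparison, read 2144 and 2056 in VHL-null cells and 2873 and 2521 in VHL-restored cells. All but the 2873 lay within the range of H1299. RPS27 was lower in HCT116 than in RCC4 (-0.35, SE 0.124, adjusted p = 0.0323), and in H1299 it was at -0.30 (SE 0.124, adjusted p = 0.0603). RPL21 was 916 to 1201 in HCT116 and 772 to 903 in H1299, a difference of 0.39 (SE 0.0884, adjusted p = 0.00986). RPS15A differed by 0.25 in HCT116 (SE 0.0639, adjusted p = 0.00588) and 0.27 in H1299 (SE 0.0639, adjusted p = 0.00396), each against RCC4. The RPS15A calls were lost in both lines without centring and with bright-gene centring. RPS3A, of the small-subunit platform, differed by 0.30 (SE 0.0952, adjusted p = 0.0197) and 0.25 (SE 0.0952, adjusted p = 0.0417). Both RPS3A calls were lost without centring and with 75th percentile centring, quantile normalization or bright-gene centring. They held in 7 (HCT116) and 4 (H1299) of 12 fits that left out an array. RPL26L1 was far lower outside RCC4, at 2 to 22 in HCT116 and 19 to 55 in H1299 over all their arrays, against 111 to 537 in RCC4.

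**Figure D4:**
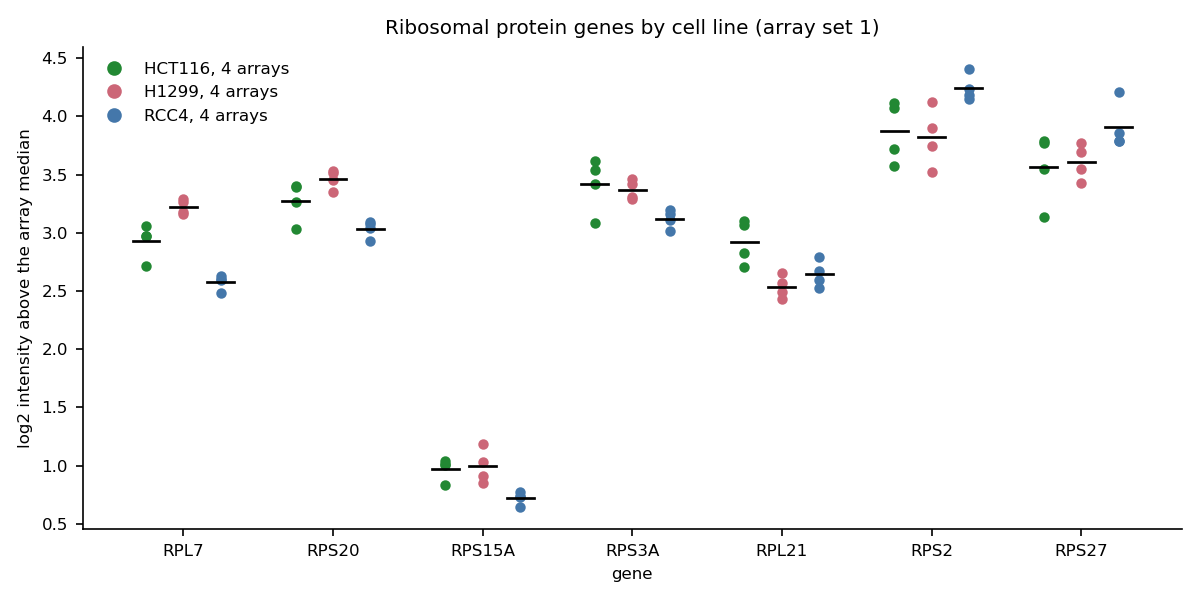
Log2 intensity above the array median of 7 genes called between lines, for the 4 arrays per line of set 1, with the mean as a bar. RPL7 and RPS20 are highest in H1299, RPL21 is highest in HCT116, and RPS2 is highest in RCC4.

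Several probe sets for a gene gave a check within 8 of the 59 genes. The 2 probe sets of RPL4 had the same sign in every line comparison, at 0.30 for the brighter and 0.40 for the dimmer in HCT116 against RCC4. Those of RPL23 were at -0.06 for the brighter and 0.06 for the dimmer there, neither called. RPS24 was the exception among genes with 2 bright probe sets. Its brighter probe set read 953 to 1289 in HCT116, 987 to 1126 in H1299 and 1224 to 1415 on the 8 set 1 arrays of RCC4. The dimmer read 463 to 584 in HCT116, 361 to 427 in H1299 and 671 to 798 on those RCC4 arrays. The dimmer separated all 3 lines, while the brighter separated H1299 from RCC4 and overlapped elsewhere. Fitted as 10143 probe sets, the dimmer was at -0.73 in H1299 (SE 0.072, limma adjusted p = 1.15e-05) and -0.32 in HCT116 (SE 0.072, adjusted p = 0.00289) against RCC4. The brighter was at -0.09 (SE 0.0832, adjusted p = 0.357) and 0.03 (SE 0.0832, adjusted p = 0.782). RPS24, a small-subunit protein mutated in some Diamond-Blackfan anaemia, has mRNAs that differ in their last exons, and which of them each probe set reads is not stated. The difference between the probe sets was itself not tested.

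**Figure D5:**
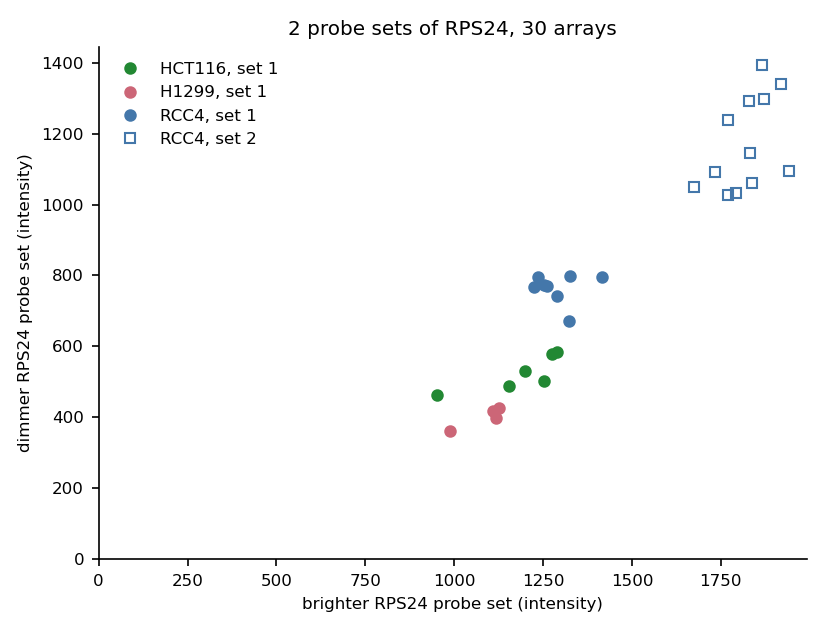
Intensity of the dimmer against the brighter RPS24 probe set on 30 arrays (both axes linear from 0), filled circles for set 1 and open squares for set 2, coloured by line. Where the brighter probe set read 1289, the dimmer read 584 in HCT116 (p53-null, 24 h) and 743 in RCC4 (VHL-null, 18 h).

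In RPS29 and RPS28 the dimmer probe sets went their own way. The second RPS29 probe set, at 101 to 191, was higher in HCT116 than in RCC4 by 0.65 (SE 0.0567, limma adjusted p = 4.11e-06), while the main probe set, at 1352 to 2275, was at 0.09 (SE 0.105, adjusted p = 0.492). The second RPS28 probe set, at 177 to 292, was at 0.21 (SE 0.0655, adjusted p = 0.0164) where the main probe set was at 0.04 (SE 0.0843, adjusted p = 0.673). The second probe sets of RPL34 and RPL35A were null on 13 and 26 arrays, and that of RPS3 was null on all 30.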

How the data were processed

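The authors deposited linear intensity values, whole numbers with null entries, scaled by a method not given in the sources used here, for 35356 probe sets of a custom Affymetrix design. Depth does not apply to arrays, and their number limits the precision. Listed intensities had medians of 145 to 174 over the arrays of set 1, and of 201 to 222 over those of set 2. Null was taken as 0, log2(value + 16) was centred on each array's median over 12690 genes (brightest of the probe sets with 1 symbol), and the upper 60% by mean, 7614 genes, entered two-sided limma tests (version 3.58.1, R 4.3.3). Benjamini-Hochberg adjustment covered all tested genes. The fits over 8 replicated RCC4 arrays had a mean per group, those over 20 had genotype, state and array set, and other lines had pair blocks. Replicate numbers were used as a block, since deviations correlated above 0.1 in all 6 pairs of groups. At 0 h and 18 h the replicate numbers equal the array set. The correlations therefore cannot tell paired samples from a difference between the array sets. No label says the single arrays came from separate cultures, so p-values reflect the spread among these arrays, which may be technical. The genotype fit over 20 arrays was also run on simulated data, and its outcome is not given here.

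The members, the lists and the alternatives were chosen with earlier results of these data known. Named genes are up to 10 per direction and comparison by size of limma's statistic, the 5 at each end by level, SD and correlation, and genes fixed by role. Probe names come from GEO's platform annotation: 16905 of 17478 annotated probe sets carry 1 symbol, 573 several, and 17878 have none. Chromosomes and start windows come from RefSeq. The alternatives were other pseudocounts (1 and 64), centrings, quantile normalization, no filter, averaged probe sets, blocks and left-out arrays. Tables and figures used Python 3.11.15.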

Additional observations from a re-analysis of the deposited data

Results flagged for a closer look

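In H1299 the ribosomal protein genes differed in opposite directions between the p53 genotypes. After 24 h of hypoxia their median change was 0.22 in p53-null cells, with 57 of 58 positive, and -0.129 in p53 wild-type cells, with 5 of 58 positive. The same 4 arrays gave a median of p53-null minus p53 wild type of 0.172 at 24 h and -0.181 at 0 h. Each value rests on 1 array per group, and the difference between the genotypes was not tested.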

How the results depend on the processing

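Counts are of ribosomal protein genes called of 58. VHL-null against VHL-restored over 20 arrays (23) gave 15 without centring (25.9%, against 31.7% of all genes), 7 without the array set as a term (12.1% against 15.1%), and 14 to 28 without single replicates. The 14 came without VHL-null 0 h replicate 2 (24.1% against 28.5%) or VHL-restored 18 h replicate 2 (24.1% against 28.3%), so in these fits the share lay below that of all genes. Reoxygenation (2) gave 1 without centring, and that one was lower, 1 with 75th percentile centring, 0 with quantile normalization, bright-gene centring or no array set term, and 0 to 1 without single 18 h arrays. HCT116 against RCC4 (15) gave 8 without centring, 6 with 75th percentile centring, 8 with bright-gene centring, 0 at 0 h only and 7 to 22 without single arrays. H1299 against RCC4 (9) gave 16 without centring, 15 with averaged probe sets, 15 with bright-gene centring, 2 at 0 h only and 4 to 15 without single arrays. HCT116 against H1299 (2) gave 0 at 0 h only and 2 to 6 without single arrays. The extremes for the lines came without HCT116 p53-null at 0 h (22, 15 and 6), HCT116 p53-null at 24 h (7) and H1299 p53-null at 24 h (4). RPL3L in HCT116 against RCC4 turned to -0.035 without centring, -0.025 with quantile normalization and -0.004 with bright-gene centring, and RPS28 between the VHL genotypes turned to 0.106 with averaged probe sets. The cause was not tested. With the replicate block the 18 h genotype comparison gave 1, and the block changed no other call of a ribosomal protein gene. Over all genes it raised the calls to 501 from 3 and 37 from 0 (hypoxia, VHL-restored and VHL-null), 572 from 9 and 578 from 2 (genotype at 0 h and 18 h) and 43 from 0 (interaction). Over all genes, without the array set term 1151 were called between genotypes against 2601, and 61 on reoxygenation against 200. The 7 other comparisons stayed at 0 under every setting run. Bright-gene centring, the left-out arrays of the line comparisons and the fit of single probe sets were chosen after seeing the data. Single arrays for most groups limit what can be tested.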
